A study of Homo sapiens with 8 samples.

Results

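MME and SERPINA5 encode a cell-surface peptidase and a secreted protease inhibitor, and both are among the genes with the most reads in a table deposited for NCI-H295R, a line from a human adrenocortical carcinoma that secretes adrenal steroids. They are 2 of the 187 tabulated genes and were picked by name, with their values already known: their high counts, their opposite directions after serum deprivation and the departure of replicate 1. The comparison between the groups is therefore described here without a test. Control cells (4 libraries) grew in DMEM-F12 with L-glutamine and HEPES, to which ITS supplement, NU-I serum and antibiotics had been added. Serum-deprived cells (4 libraries) had the same medium, antibiotics included, without NU-I serum and without ITS, the supplement of insulin, transferrin and selenium, so that loss of serum and loss of ITS cannot be told apart. The labels name a single cell line with no genetic change, and do not state that replicates were grown separately, so the spread between them may be technical.

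MME, also called neprilysin, is a zinc-dependent endopeptidase anchored in the plasma membrane with its active site outside the cell. It cleaves small peptides such as natriuretic peptides, tachykinins, enkephalins, endothelin, bradykinin and amyloid beta, and so ends their signals near the cell surface. SERPINA5, also called protein C inhibitor, is a secreted serpin that binds heparin and traps activated protein C, thrombin, urokinase, plasma kallikrein and acrosin, among other serine proteases. A serpin offers its reactive loop as bait and stays covalently bound to the protease that cuts it.

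Polyadenylated RNA was counted per gene as estimated counts, in which a read that fits several transcripts is divided among them. The 187 genes had been selected by the authors as changed, so the table totals of 262373 to 359195 counts are no measure of sequencing depth. Counts were divided by a size factor for each library (0.846 to 1.21) to give scaled counts. Of the 12 adrenocortical markers looked for, HSD3B2, MRAP, INHA and DLK1 were tabulated, with control means from 88.2 to 72897 scaled counts. All 4 fell after deprivation, in the direction of SERPINA5, with edgeR log2 fold changes of -1.42 ± 0.37 (SE, adjusted p = 0.00621) for the steroid dehydrogenase HSD3B2, -1.09 ± 0.23 (0.00275) for MRAP, an accessory protein of the corticotropin receptor, -0.77 ± 0.13 (0.00101) for INHA, the inhibin alpha subunit, and -0.55 ± 0.08 (0.000535) for DLK1. In the table as a whole 90 of 187 genes (48.1%) fell in that test, which called a gene at an adjusted p under 0.05. Since all tabulated genes had been selected as changed, the adjusted p-values of the markers are no separate evidence of a fall. The part of this fall of the markers in the values of MME and SERPINA5 was not tested. The other adrenocortical markers and all markers of fibroblasts, endothelium and leukocytes lie outside the table and were not analysed here. In RNA from whole cultures, fewer cells that express a gene and less of its RNA per cell cannot be told apart.

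MME lies on chromosome 3 from 155024124 to 155183729 on the plus strand (GRCh38, GENCODE release 29), with 18 annotated transcripts. Its estimated counts were 24125, 16780, 15639 and 13482 in control replicates 1 to 4 and 15250, 21478, 24505 and 19956 in serum-deprived replicates 1 to 4. After scaling, the controls stood at 24226, 13833, 13629 and 14225 and the serum-deprived libraries at 17978, 21796, 22776 and 23580. With this scaling control replicate 1 was the highest of all 8 libraries and the other 3 controls were the lowest. The scaled groups thus overlapped through that library alone. In unscaled counts, control replicates 2 and 3 also lay above serum-deprived replicate 1. Control replicate 1 was below the highest serum-deprived library without scaling, with median-of-ratios size factors (22927 against 24248) and with the shift from the authors' fold changes (23873 against 23929). The means were 16478 ± 5171 in controls and 21532 ± 2479 after deprivation (SD, n = 4 per group), a fitted log2 fold change of 0.39 ± 0.19 (SE, edgeR). Without control replicate 1 it was 0.63, and without replicate 1 of both groups 0.71.

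SERPINA5 lies on chromosome 14 from 94561442 to 94593120 on the plus strand, with 13 annotated transcripts. Its estimated counts were 17383, 25188, 22582 and 18935 in control replicates 1 to 4 and 9453, 12912, 12840.0 and 10138 in the serum-deprived replicates. Scaled counts were 17456, 20763, 19679.8 and 19978 in controls against 11144, 13103, 11934 and 11979 after deprivation. Every serum-deprived library was below every control, and with this scaling replicate 1 was the lowest of its group in both. In the serum-deprived group that rank did not hold with TMM or median-of-ratios size factors. The means were 19469 ± 1418 and 12040 ± 806 (SD, n = 4 per group), a fitted log2 fold change of -0.69 ± 0.09 (SE, edgeR), or 1.62-fold lower. The groups stayed apart under all 6 ways of scaling that were tried. Of the pair, SERPINA5 was thus the 1 gene of 2 whose groups did not overlap. In the whole table this held for 124 of 187 genes (66.3%), a share set by the authors' selection of changed genes, from which nothing is read about the members.

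**Figure D1:**
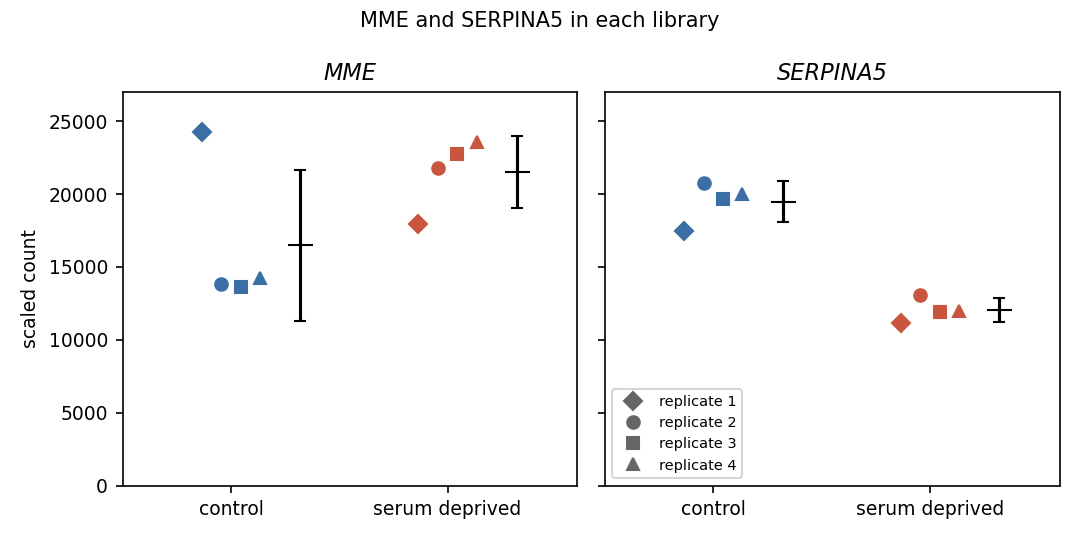
Scaled counts (linear axis from 0) of MME and SERPINA5 in the 4 control and 4 serum-deprived libraries, with a marker shape for each replicate number and the mean ± SD beside each group. Control replicate 1 of MME, at 24226, lies above the 3 other controls (13629 to 14225), while the SERPINA5 groups do not overlap.

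The reads behind these values were many, so that counting error alone was small: 0.639 to 0.861% of the value for MME and 0.63 to 1.03% for SERPINA5. That figure covers counting error only, since reads were not marked as single molecules. Among replicates 2 to 4 the coefficient of variation of MME was 2.18% in controls and 3.93% after deprivation, against medians of 10.3% and 11.2% over the 187 genes. With replicate 1 included it was 31.4% and 11.5%, and 158 of the other genes varied less than MME among the 4 controls. SERPINA5 varied by 7.28% among all controls and 6.69% among all serum-deprived libraries, where 16 and 14 genes varied less. Among replicates 2 to 4 it varied by 2.78% in controls and 5.37% after deprivation, somewhat more than MME in both. Both genes thus varied less than the median gene in replicates 2 to 4, and differed in how far replicate 1 stood from those replicates. Only 107 of the 187 genes had a mean count of at least 100, and fewer reads bring a larger counting error. The comparison with the median gene was not adjusted for read number, so nothing is read from it about the members.

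Because a ratio of counts within a library does not depend on depth or scaling, MME was set against SERPINA5 library by library. The MME to SERPINA5 ratio was 1.39, 0.666, 0.693 and 0.712 in control replicates 1 to 4 and 1.61, 1.66, 1.91 and 1.97 in serum-deprived replicates 1 to 4. All 4 serum-deprived ratios were above all 4 control ratios, control replicate 1 included, although that library was nearer to the serum-deprived range than to the other controls. On the log2 scale the mean ratio was -0.28 ± 0.51 in controls and 0.83 ± 0.14 after deprivation (SD, n = 4 per group), a difference of 1.12, or 2.17-fold. In replicates 2 to 4 alone the control mean was -0.54 ± 0.05 and the difference 1.42, or 2.67-fold. The ratio gives the change of MME relative to SERPINA5 and does not say how much of it belongs to either gene.

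**Figure D2:**
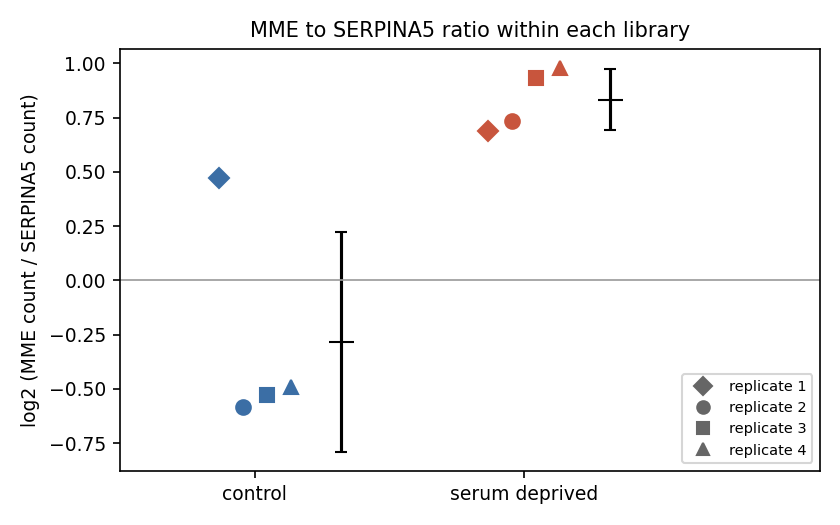
The log2 ratio of MME to SERPINA5 estimated counts within each library, by group, with a marker shape for each replicate number and the mean ± SD beside each group. Controls 2 to 4 lie between -0.59 and -0.49, control 1 at 0.47, and the serum-deprived libraries between 0.69 and 0.98.

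These are ratios of reads and not of molecules, since longer transcripts give more reads. Per kilobase of the longest annotated protein-coding transcript (5622 bases for MME and 2337 for SERPINA5), the MME to SERPINA5 ratio was 0.277 to 0.577 in controls and 0.671 to 0.818 after deprivation. Counted as reads, MME exceeded SERPINA5 in the 4 serum-deprived libraries and in control replicate 1. On the per-kilobase scale it was below SERPINA5 in all 8 libraries. The transcripts that these cells used are not resolved in the table, and with shorter MME transcripts the per-kilobase ratio would be higher.

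Libraries with the same replicate number deviated together from their group means, though weakly, with correlations across genes of 0.110 to 0.376. The numbers were taken to pair them, and the difference between the groups was also read number by number. For MME the log2 difference, serum-deprived minus control, was -0.43 for replicate 1 and 0.66, 0.74 and 0.73 for replicates 2, 3 and 4. MME was therefore lower after deprivation in the replicate 1 pair and higher in the 3 others. The sign was negative in the first pair and positive in the others under all 6 scalings, and the value of the first pair ran from -0.66 to -0.21. For SERPINA5 the 4 differences were -0.65, -0.66, -0.72 and -0.74. All 4 pairs had the same sign under all 6 scalings. The replicate 1 pair gave nearly the same difference as the rest, though with TMM factors it was -0.45 against -0.89 to -0.73 in the others.

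The SD of the 4 differences was 0.04 for SERPINA5 on the log2 scale, against a median of 0.32 over the 187 genes. In 185 genes it was larger, and in 1 gene, LCP1, an actin-bundling protein, it was smaller. That place was not adjusted for read number. SERPINA5 had a mean count of 16179, and genes with few reads vary more through counting error. This steadiness depended on the scaling: with TMM factors the SD for SERPINA5 was 0.18 and 33 genes were steadier, while under the other alternatives it was 0.04 to 0.08 and 1 to 6 genes were steadier. For MME the SD was 0.57, which was exceeded by 37 genes, and over replicates 2 to 4 alone it was 0.05. In the replicate 1 pair 22 of the 93 genes that the authors' deposited table lists as higher were lower, MME among them, and 8 of these had a more negative difference than MME. Genes listed as higher had a median difference of 0.49 in that pair and genes listed as lower a median of -0.72. SERPINA5, at -0.65, was near the latter and MME was far from the former. Expressed as the ratio of the pair of genes, the log2 change was 0.22 in replicate 1 and 1.32, 1.46 and 1.47 in replicates 2 to 4.

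**Figure D3:**
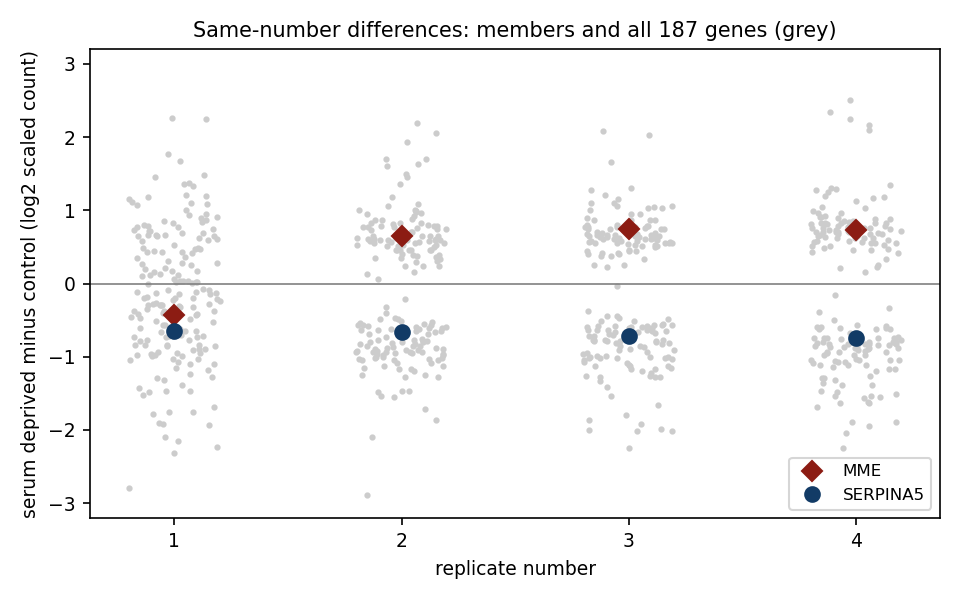
Serum-deprived minus control difference in log2 scaled count for each replicate number, with all 187 genes as grey dots (spread sideways at random) and MME and SERPINA5 as large markers; 2 grey dots beyond ± 3.2 are not drawn. SERPINA5 stays between -0.74 and -0.65, while MME is at -0.43 in replicate 1 and at 0.66 to 0.74 in the others.

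The departure of replicate 1 was unequal between the genes and between the groups. In control replicate 1, MME was 1.74-fold above the mean of the other controls (0.80 on the log2 scale, with an SD of 0.03 among those 3). In serum-deprived replicate 1 it was 1.26-fold below the others (-0.34, SD 0.06). SERPINA5 was below the others in both, by 1.15-fold in the control (-0.21, SD 0.04) and by 1.11-fold after deprivation (-0.15, SD 0.08). The sign and size of a departure rest on the scaling. With TMM factors, SERPINA5 in serum-deprived replicate 1 was the highest of its group, and MME there was no longer the lowest. Since the departures of a library's genes keep their order under any size factor, each can be placed among the 187. In control replicate 1, 10 genes had a higher value than MME, and the middle 50% of genes lay between -0.40 and 0.32. SERPINA5 lay inside that range.

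The genes above MME in that order had few reads in the main. Only DMD, the dystrophin gene, had a mean count of at least 1000, with a scaled count of 1401 in control 1 against 626 to 836 in the other controls. The largest departure, 3.13, was that of AC010970.1, annotated as a processed pseudogene (150 in control 1 against 11.6 to 23.1). In serum-deprived replicate 1 it was above the others too, by 1.82. Others were NUTM2A (50.8 in control 1 against 8.59 to 27.7), VCX3B (107 against 37.4 to 45.6), the chloride channel gene BEST1 (112 against 47.0 to 53.0) and the secreted angiopoietin-like gene ANGPTL1 (494 against 234 to 272). Among the 20 genes with the highest counts, MME had the largest departure in either direction, followed by ANKFN1 (0.77), the IGF-binding protein gene IGFBP2 (0.72) and the synaptic vesicle gene SV2B (0.53). ANKFN1, IGFBP2 and SV2B were above the other replicates in serum-deprived replicate 1 as well, by 0.39, 0.86 and 0.78, whereas MME was below them. DMD and the 20 genes were looked at after their values had been seen.

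**Figure D4:**
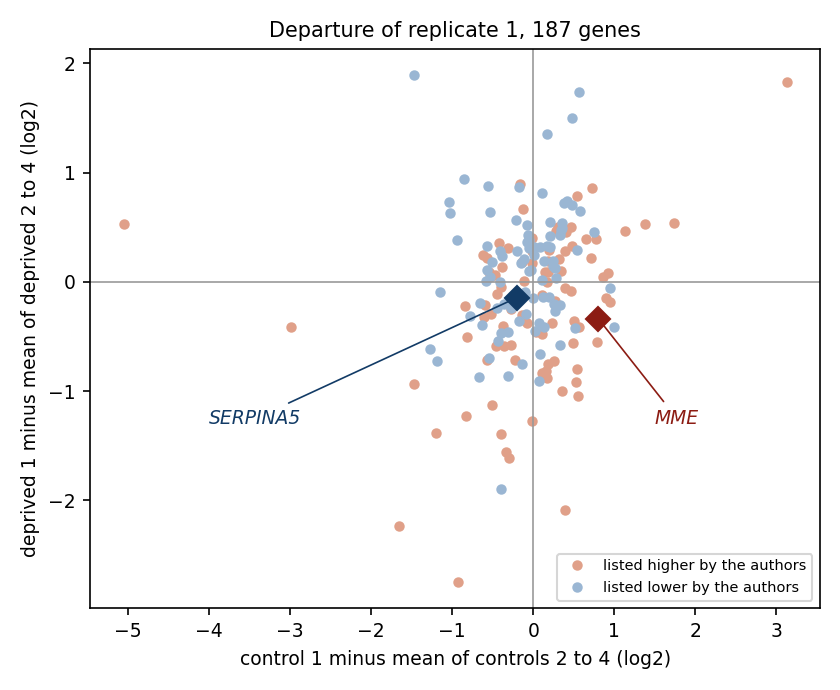
For each of 187 genes, the log2 departure of control replicate 1 from the mean of controls 2 to 4 (x axis) and of serum-deprived replicate 1 from the mean of serum-deprived replicates 2 to 4 (y axis), coloured by the direction in the authors' deposited table. MME lies at 0.80 and -0.34 and SERPINA5 at -0.21 and -0.15.

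In the authors' deposited table MME has a log2 fold change of 0.75 and an FDR of 3.26e-42, at place 3 of the 187 by FDR. SERPINA5 has -0.66 and 9.2e-18 in the authors' deposited table, at place 10. By size, the authors' deposited table gives 37 of the 93 genes listed as higher a larger value than MME, and 79 of the 94 listed as lower a more negative value than SERPINA5. In unscaled mean counts of replicates 2 to 4 the log2 ratios were 0.52 and -0.89, both 0.23 below the values of the authors' deposited table. The authors' value for MME is nearer to the 0.71 found without replicate 1 than to the 0.39 found with all 8 libraries. For SERPINA5 both choices give about the same value (-0.71 and -0.69).

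Against the other 3 genes with the most reads, which are themselves selected as changed, the members differed. The ratio of MME to HMGCS1, the cholesterol synthesis enzyme that makes HMG-CoA, was 0.525 to 0.632 in control replicates 2 to 4 and 0.515 to 0.601 after deprivation, ranges that overlap. The control replicate 1 ratio was 0.916. Against SCD, the stearoyl-CoA desaturase, MME stood at 0.258 to 0.313 in controls 2 to 4, at 0.22 to 0.319 after deprivation and at 0.627 in control replicate 1. MME in control replicate 1 was thus above the range of the other controls against each of these genes, not against SERPINA5 alone.

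Against DLK1, a ligand related to Notch ligands that fell after deprivation, MME stood at 0.184 to 0.189 in controls 2 to 4, at 0.36 in control 1 and at 0.33 to 0.511 after deprivation. SERPINA5 to DLK1 was 0.259 to 0.284 over all controls and 0.205 to 0.269 after deprivation, ranges that overlap. Against SCD and HMGCS1 the SERPINA5 ratios separated, at 0.376 to 0.452 and 0.66 to 0.888 in controls and at 0.136 to 0.179 and 0.27 to 0.373 after deprivation. The serum-deprived ranges include replicate 1. In serum-deprived replicates 2 to 4 alone, MME stood at 0.515 to 0.587 against HMGCS1 and at 0.297 to 0.319 against SCD. SERPINA5 stood at 0.240 to 0.269 against DLK1 there. So in reads, MME moved about as HMGCS1 and SCD did in replicates 2 to 4, and SERPINA5 about as DLK1 did.

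The tabulated genes whose profiles were most like each member were found by the SD, over the 8 libraries, of the log2 ratio of the 2 genes, which is 0 for genes that keep a fixed ratio and does not depend on scaling. For MME the 5 nearest were GUCY1A2, a subunit of the nitric oxide receptor guanylate cyclase (SD 0.18), AP002990.1 (0.18), SCEL, the cornified-envelope protein sciellin (0.18), LSAMP, a cell adhesion protein of neurons (0.19), and PRUNE2 (0.19). The median over all 186 other genes was 0.69. GUCY1A2 had 65.3, 29.7, 31.4 and 41.1 scaled counts in controls 1 to 4 and 54.2, 59.9, 67.9 and 57.9 after deprivation, so that control replicate 1 was high for it too. PRUNE2 had 3564 in control 1 against 2902 to 3027 in the other controls and 4013 to 4689 after deprivation.

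For SERPINA5 the nearest were AC087289.1 (SD 0.08) and IRF9, the DNA-binding subunit of the interferon-activated complex ISGF3 (0.08). Next came the transcription factor CEBPB (0.12), the stress-activated kinase MAP3K5 (0.13) and EPB41L4A (0.14). The gene identifier deposited for AC087289.1 has the name TRIM47 in GENCODE release 29. The median over the 186 other genes was 0.65. AC087289.1 had 1166, 1433, 1232 and 1387 scaled counts in controls 1 to 4 and 719, 807, 712 and 799 after deprivation, and IRF9 305 to 399 and 185 to 230.2. All 5 had lower means after deprivation, as SERPINA5 did. SERPINA5 itself was the gene at place 92 in nearness to MME. Over replicates 2 to 4 alone, an alternative chosen after seeing the data, the nearest genes were CADPS, NTM, TRPM3, PRUNE2 and ANKFN1 for MME and DLK1, TESC, FLYWCH2, IRF9 and INHA for SERPINA5. PRUNE2 was the 1 gene shared by both sets for MME, and IRF9 for SERPINA5.

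**Figure D5:**
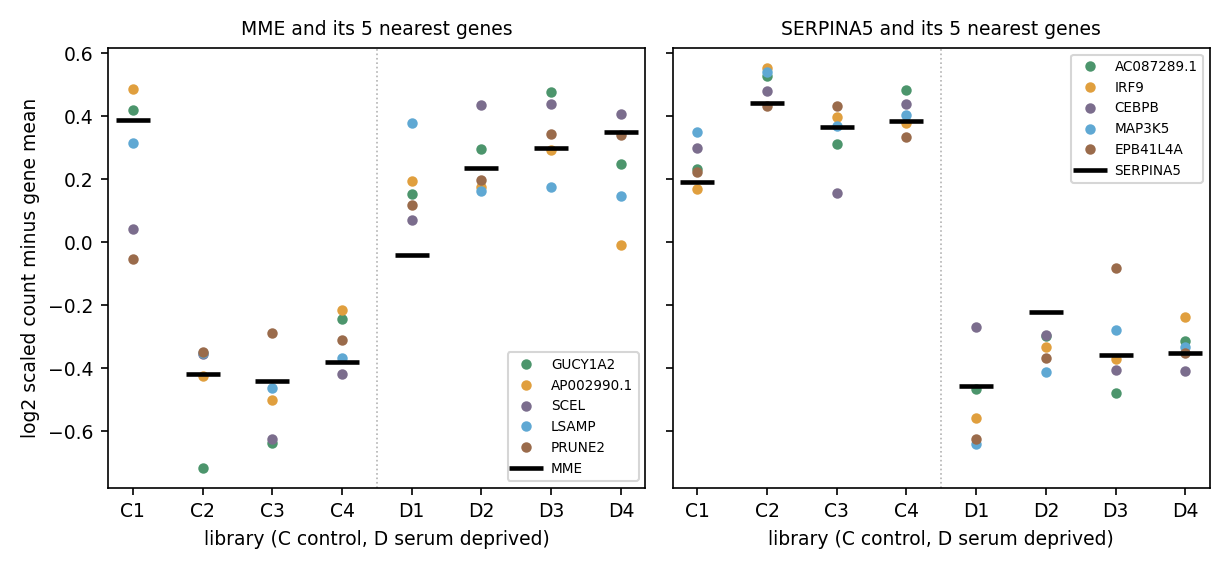
Log2 scaled count minus the gene's mean over 8 libraries, for MME (left) and SERPINA5 (right, black bars) and the 5 tabulated genes nearest to each (coloured dots), in controls (C1 to C4) and serum-deprived libraries (D1 to D4). GUCY1A2, AP002990.1 and LSAMP are high in C1 along with MME, while SCEL and PRUNE2 are less so, and the SERPINA5 set separates the groups in every library.

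Genes that work with or beside the members were sought by lists. Of 23 other peptidases that process peptide hormones, 1 was tabulated, CPM, a membrane carboxypeptidase that trims C-terminal arginine or lysine from peptides. It rose, from 1097, 1068, 996 and 923 scaled counts in controls 1 to 4 to 1649, 1572, 1447 and 1628 after deprivation. The groups did not overlap, replicate 1 stood with its group, and edgeR gave a log2 fold change of 0.62 ± 0.11 (SE, adjusted p = 0.0013 over 187 genes). In the table as a whole 159 of 187 genes (85%) passed that test (adjusted p under 0.05), and in 124 (66.3%) the groups did not overlap. So 1 of 1 is no result about the list. Without scaling the adjusted p in edgeR was 0.05004. CPM counts were not whole numbers.

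Of 28 genes for precursors of peptides that neprilysin cleaves, 0 were tabulated. Of 24 receptors for such peptides 2 were, and they moved in opposite directions. In the table as a whole the groups did not overlap in 124 of 187 genes (66.3%), and 159 (85%) were called. The calls and the lack of overlap given below are therefore no result about the list. EDNRA, the endothelin A receptor, fell from 241, 229.99, 193 and 191 scaled counts in controls to 133, 118, 126 and 117 after deprivation, and the groups did not overlap. Its log2 fold change in edgeR was -0.79 ± 0.15 (SE, adjusted p = 0.0013). OPRL1, the nociceptin receptor, rose from 0.0145, 9.74, 25.3 and 18.9 to 50.4, 45.8, 33.0 and 27.9, and again the groups did not overlap. Its log2 fold change was 1.52 ± 0.58 (SE), and the call was lost in 5 of 17 alternatives, where it was 1.31 to 1.6. Without replicate 1 of both groups it was 0.99 (edgeR adjusted p = 0.0161). The edgeR adjusted p was 0.0333 with all libraries, 0.0625 with a replicate block, 0.0546 without scaling, 0.0805 without control replicate 2, and 0.052 and 0.0726 without serum-deprived replicate 1 and 2.

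On the side of SERPINA5, 0 of 34 other serpins and 0 of 30 target proteases and cofactors of protein C inhibitor were tabulated. Of 48 other proteases and inhibitors 1 was tabulated, the calpain CAPN3, which rose from 28.5 to 61.7 scaled counts in controls to 74.4 to 91.7 after deprivation (log2 fold change 0.85 ± 0.24, SE). Its adjusted p in edgeR was 0.00932, and 0.0884 without scaling. With 159 of 187 genes (85%) called in the whole table, this call is no result about the list. The table holds selected genes only, so absence from it says nothing about change. The list of other proteases and inhibitors did not cover every such gene. TFPI2 and CFI, which fell, and PRSS35, which rose, were tabulated but not on it. Their edgeR log2 fold changes were -0.77 ± 0.17, -0.97 ± 0.12 and 0.65 ± 0.18 (SE). They were looked at after the results were known.

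Neighbouring genes bear on how exactly the reads were assigned. SERPINA5 counts lay within 0.0423 of a whole number in every library, whereas MME counts were up to 0.415 away from one, as happens where reads are divided among transcripts of more than a single gene. MME-AS1, an antisense gene on chromosome 3 from 155158370 to 155183285, shares 214 exonic bases with MME. The libraries are stranded, but no source used here states whether the counting used strand, and reads of that stretch cannot be told apart without it. SERPINA5 shares 53 exonic bases with SERPINA4, which starts just upstream of it and overlaps it, and 79 with AL049839.2, which runs on toward SERPINA3. MME-AS1 and SERPINA4 were not analysed here. AL049839.2 is tabulated, with 84.2, 115, 103 and 118 scaled counts in controls 1 to 4 and 68.4, 61.7, 67.9 and 76.3 after deprivation. Its groups did not overlap, as held for 124 of 187 genes (66.3%), and its direction was that of SERPINA5. In nearness of profile to SERPINA5 it was at place 8 (SD 0.16). How far its reads arise from the shared exon was not tested.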

How the data were processed

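NCI-H295R cells were sequenced as stranded single-end polyadenylated RNA libraries, per the labels' protocols. The authors deposited estimated counts per gene for 187 selected genes in 8 libraries, with their log2 fold change and FDR (an adjusted p-value). The tools were kallisto, edgeR, cutadapt and FastQC and the build GRCh38, per the submitters' processing notes, which name no versions. Columns were assigned by condition and replicate number, with 0 columns of other samples. The members, lists and alternatives were chosen with earlier results of these data known.

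Within a group, each library's size factor was its median ratio, taken over all genes, to the geometric mean of the group's libraries (pseudocount 0.5). Between groups, the widest empty interval of log2 ratios with at least 20 genes on each side (-0.43 to 0.00) was centred on 0, a shift of -0.21. Rounded counts were fitted with edgeR 4.0.16 (R 4.3.3, quasi-likelihood, 2 groups, no covariate, Benjamini-Hochberg adjustment over 187 genes), and the step was tested on simulated data. Alternatives used DESeq2 1.42.0, limma 3.58.1 and other scalings. Depth per library is unknown. Named genes were the members, the 5 nearest by profile, the tabulated list genes and up to 5 genes departing more than MME in control replicate 1. Same-numbered libraries deviated together, with correlations across genes of 0.215, 0.376, 0.110 and 0.123, so the numbers were taken to pair them. Within groups no libraries were duplicates (chi-square per degree of freedom 4.27 to 63.7). The high values were those of replicate 1 against the others, over all tabulated genes: 48.5 to 63.1 in controls and 46.4 to 63.7 after deprivation. Among replicates 2 to 4 they were 7.78 to 19.3 and 4.27 to 11.3. Annotation was GENCODE release 29, on GRCh38, and Python 3.11.15 was used for the remaining steps.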

Additional observations from a re-analysis of the deposited data

Results flagged for a closer look

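In controls, 2 measures had a library whose gap to the nearest other library as a share of the group's range exceeded Dixon's 95% limit for 4 samples. They were the scaled count of MME in control replicate 1, 24226.3 (gap 0.944 of the range), and the MME to SERPINA5 ratio in the same library, 1.39 (0.937). Both are the same library and share the MME count, so they are not separate observations. The pair had been chosen with the departure of replicate 1 and the ratio in view, so these gaps describe values already used in that choice and test nothing. Over all tabulated genes, replicate 1 was past this limit in 15 of 187 genes (8.02%) in controls and in 14 (7.49%) after deprivation. SERPINA5 replicate 1 was not past it, with a gap of 0.672 of the range in controls.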

How the results depend on the processing

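MME kept a positive and SERPINA5 a negative log2 fold change under every alternative run. For MME, 0.39 with all libraries, the value ran from 0.31 to 0.63 on leaving out each library in turn and was 0.71 without replicate 1 of both groups. For SERPINA5, -0.69, it ran from -0.74 to -0.66 on leaving out each library, and was -0.54 with median-of-ratios size factors, -0.54 in DESeq2 and -0.89 without scaling. The MME to SERPINA5 log2 ratio change, 1.12, ran from 1.02 to 1.37 on leaving out each library. A replicate block gave values of 0.43 for MME, -0.69 for SERPINA5 and 1.12 for the ratio, with 162 genes called in edgeR, against 159. Leaving out each library gave 133 to 173 calls. Without replicate 1 of both groups there were 187 calls in edgeR, 93 higher and 94 lower. These are the numbers that the authors' deposited table lists as higher and lower. Whether the authors' selection used replicate 1 was not tested. With a mean count of at least 100 there were 91, as only 107 genes were then tested. Without scaling 21 genes were higher and 91 lower, against 69 and 90. Without scaling MME overlapped between the groups even without control replicate 1, which was not so under the other 5 scalings. The table lacks unchanged genes, so the scale between the groups rests on the widest empty interval of log2 ratios over all 8 libraries (-0.43 to 0.00). The size of each fold change depends on that scale, and the ratio does not. This interval need not be the gap left by the authors' selection, for which the name of their deposited table gives a limit of 1.5-fold.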
